A study of Glycine max with 47 samples.

Results

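The libraries described here come from whole roots of the soybean (Glycine max) cultivar MN1806CN on plants infested with the soybean aphid (SBA), sampled 30 and 5 days post infestation (dpi). They were chosen by their labels, and are 6 of the 47 libraries of the study, 3 at each time point. MN1806CN is resistant to the soybean cyst nematode (SCN) and susceptible to SBA, and these plants received 15 SBA of biotype 1 at the second trifoliate stage and no SCN. The study also held MN1806CN and PI518671 (Williams 82, susceptible to SCN and to SBA) without pests, with SBA, with SCN and with both (SCN:SBA), in 16 groups of 3 libraries except the MN1806CN control at 30 dpi, which had 2. By the study's methods each library is a plant from another block of the greenhouse, and the 5 dpi roots came from 1 water bath and the 30 dpi roots from another. Time after infestation, plant age and water bath therefore cannot be told apart in this comparison.

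SBA feeds above ground on the phloem sap of the shoot, on which the root depends for sugar. A soybean root at the later time is older, has branched further and may carry nodules, the organs in which bacteria fix nitrogen. Whole-root RNA averages over all of these tissues, so that fewer cells of a type and less RNA per cell cannot be told apart. The gene IDs in the counts were not paired with names or functions in the sources used here, so genes are described by level, chromosome (the number in the ID), neighbours in ID order and behaviour in other groups, and markers of root or nodule tissue were not analysed.

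The 5 dpi libraries held 16815160, 12268563 and 16590158 estimated counts and the 30 dpi libraries 17025027, 16458081 and 22222510. Levels are given as CPM, counts relative to the library total after scaling by edgeR's TMM factor, which ranged from 1.0177 to 1.1421 at 5 dpi and from 0.8726 to 0.9853 at 30 dpi. On log2(CPM + 1), 5 dpi replicate 2 stood apart from the other 5 dpi libraries, at Pearson's r of 0.89 and 0.915 against 0.963 between those. It was also nearer to the 30 dpi libraries (0.819 to 0.843) than they were (0.753 to 0.801). The 30 dpi libraries correlated at 0.941 to 0.966 with each other. These correlations run across genes with a mean of at least 1 CPM over the 6 libraries. Genes are not independent replicates.

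At 30 dpi 4286 genes were higher (9.94% of the 43122 tested) and 4566 were lower (10.6%), 8852 in all (20.5%), by edgeR's quasi-likelihood test at a Benjamini-Hochberg adjusted p under 0.05. The changes upward were larger. The median log2 fold change was 2.23 over the genes that rose and -1.46 over those that fell, beside -0.04 over all genes tested. Of the genes that rose, 2456 (57.3%) changed by more than 2 on the log2 scale, beside 1388 (30.4%) of those that fell, and 303 against 118 changed by more than 5. The 34270 other genes did not pass the test, which does not show that they stayed the same.

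The balance between the directions depended on the scaling, the filter and the test. More genes were higher than lower with RLE factors (4518 against 4007), with no filter (4242 against 3746), with the DESeq2 Wald test (5029 against 4549) and in a fit of the 6 libraries alone (3753 against 3321). With library totals in place of TMM factors, an alternative chosen after seeing the data, 3454 genes were higher and 6835 lower, and the median over all genes moved from -0.04 to -0.24. All 4566 genes that fell were still called, and 3452 of those that rose. Without 5 dpi replicate 2 the counts were 4487 higher and 4916 lower. The number that fell dropped by over 1.5 times without any of 3 other libraries, to 2741 without 5 dpi replicate 3, to 2765 without 30 dpi replicate 1 and to 2961 without 30 dpi replicate 3.

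**Figure D1:**
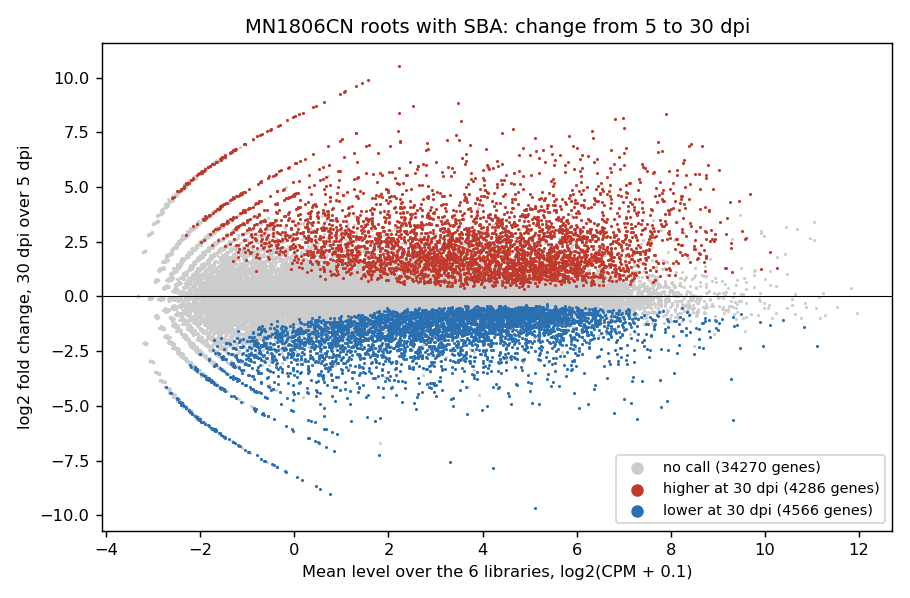
Each point is 1 of the 43122 tested genes, with its mean level over the 6 libraries as log2(CPM + 0.1) on the x axis and its log2 fold change, 30 over 5 dpi, on the y axis. The 4286 genes in red were higher at 30 dpi and the 4566 in blue lower; red points reach farther from 0 than blue ones over most of the x axis.

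The genes were called on these same libraries, so their separation is a description. The 3 libraries at 30 dpi all lay above the 3 at 5 dpi for 4080 (95.2%) of the genes that rose, where 17.3% of all tested genes were separated in that direction. They all lay below for 4296 (94.1%) of the genes that fell, where the share over all genes was 19.6%.

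By mean level over the 6 libraries, the class above 100 CPM held the largest share of genes that rose. That mean takes in both time points, so a large change itself moves a gene into a higher class. The shares are therefore a description. Among genes with a mean above 100 CPM, 415 of 1698 (24.4%) rose and 190 (11.2%) fell. From 10 to 100 CPM 12.2% rose and 11.9% fell, from 1 to 10 CPM 9.43% rose and 12.2% fell, and below 1 CPM 4.36% rose and 5.70% fell. The counts behind the lowest class limit what could be called there.

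As shares of the RNA, the genes that rose took 5.59%, 6.68% and 6.73% of the counts of the 5 dpi libraries in increasing order, and 25.3%, 26.4% and 27.0% at 30 dpi. The genes that fell took 14.1%, 19.1% and 19.97% at 5 dpi and 5.83%, 5.86% and 6.34% at 30 dpi. No library of 1 time point entered the range of the other. These genes were chosen on the same libraries, so the gap is a description of its size.

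Some called genes had no count at 1 time point, after the estimated counts were rounded to whole numbers. Pooled levels and floors in this paragraph are relative to the pooled library totals, without TMM factors. For 91 genes that rose, none of the 45673881 counts pooled over the 5 dpi libraries was theirs, and their pooled level at 30 dpi ran from 0.126 to 8.94 CPM with a median of 0.431. Against a floor of 3 counts over the group (0.0657 CPM) the highest was at least 136-fold higher at 30 dpi. Another 87 genes had no count at 30 dpi and 0.109 to 3.55 CPM at 5 dpi, and the highest was at least 65.9-fold lower at 30 dpi against a floor of 0.0539 CPM. In the MN1806CN control, 31 of the 91 were also called higher, beside 11.1% of all genes, and 22 of the 87 were also called lower, beside 9.9%. Floors and intervals here cover counting error only and not the spread between plants, since counts were pooled over the libraries of a group. The reads carried no molecular identifiers, so counting error itself may be larger than these show.

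The 10 largest rises (mean of at least 5 CPM, groups not overlapping) reached log2 fold changes of 7.36 to 8.85 and lay on 8 chromosomes. Their levels ran from 0 to 2.14 CPM at 5 dpi and from 6.72 to 530.2 CPM at 30 dpi. All 10 were also called higher at 30 dpi in the MN1806CN control, beside 11.1% of all genes, and in PI518671 with SBA, beside 9.99%. The 10 largest falls, from -9.69 to -5.09, lay on 10 chromosomes, and their levels ran from 5.00 to 1874 CPM at 5 dpi and from 0 to 35.7 CPM at 30 dpi. Of these 10, 9 were also called lower in the MN1806CN control, beside 9.9% of all genes. The control libraries at 5 dpi were uneven there, with replicate 2 the lowest of them for most of the 10. In PI518671 with SBA 0 were called lower, beside 5.26%, and their log2 fold changes ran from -2.11 to 7.10. The lowest were -2.11 (adjusted p = 0.0648) and -1.81 (adjusted p = 0.197), and the 7.10 rested on 30 dpi replicate 3 (6.48 CPM). That library was also the highest of the PI518671 SBA libraries at 30 dpi for most of the 10. Several of the 10 were below 1 CPM in every PI518671 SBA library at 5 dpi, where a fall could hardly be seen.

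Glyma.05g049800, on chromosome 5, had the largest rise. Its levels were 0, 0.143 and 0 CPM in 5 dpi replicates 1 to 3 and 29.4, 19.7 and 17.3 CPM at 30 dpi. It was all but absent from the 5 dpi libraries of this comparison and present in each of its 30 dpi libraries, with 2 counts in all against 1118. Scaled to the pooled totals that is a 458-fold difference (95% exact counting interval 127 to 3789), and the fitted log2 fold change was 8.85 (SE 1.08, adjusted p = 4.84e-07 by edgeR). Both 5 dpi counts came from replicate 2, and without that library the fitted value was 11.81, against a group with no count. The next tested gene in ID order was the sixth largest rise. In the MN1806CN control it went from 0.138, 0.848 and 0.328 to 16.03 and 36.2 CPM. In PI518671 with SBA the range was 0.116 to 0.426 CPM at 5 dpi and 18.02 to 49.8 CPM at 30 dpi. Levels at 30 dpi were lower in MN1806CN with SCN (3.66 to 7.71 CPM) and with SCN:SBA (0.239 to 1.36 CPM), ranges that lay below that of the SBA libraries. The 5 dpi libraries of PI518671 with SCN held 5.89 to 20.4 CPM, a range that overlaps MN1806CN with SBA at 30 dpi.

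Glyma.16g060700, on chromosome 16, was among the 5 most abundant genes that rose. Its levels were 530.4, 346.4 and 414.4 CPM at 5 dpi and 1576, 2271 and 1515 CPM at 30 dpi, a mean of 430.4 ± 93.0 against 1787 ± 419.7 (SD, n = 3 each). The time points did not overlap, and the log2 fold change was 2.05 (SE 0.72, adjusted p = 0.0396 by edgeR). The call was lost whichever of the 6 libraries was left out, with log2 fold changes of 1.85 to 2.23 and adjusted p from 0.0533 to 0.12, and also with library totals (1.88, adjusted p = 0.0637). It was kept with all 6 libraries under the other settings, among them the DESeq2 Wald test (2.10, adjusted p = 0.0108) and a fit of the 6 libraries alone (2.07, adjusted p = 0.00549 by edgeR). The change was 2.24 in the MN1806CN control (adjusted p = 0.0354) and 2.32 in PI518671 with SBA (adjusted p = 0.0256), where the libraries spread widely, from 40.9 to 578.0 CPM at 5 dpi and from 526.4 to 2250 CPM at 30 dpi.

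Glyma.04g049200, on chromosome 4, had the largest fall. Its levels were 116.5, 27.1 and 64.3 CPM at 5 dpi and 0.202, 0 and 0.0479 CPM at 30 dpi. Every 5 dpi library was far above every 30 dpi library, with 3507 counts in all against 4, a 1069-fold difference (95% exact counting interval 417 to 3927). The log2 fold change was -9.69 (SE 1.83, adjusted p = 0.000183 by edgeR), and it was -11.02 without 30 dpi replicate 1. In the MN1806CN control it was at 63.2, 0.798 and 26.9 CPM at 5 dpi and at 0 in both 30 dpi libraries. In PI518671 with SBA it was at 0.540 to 0.922 CPM at 5 dpi and 0.165 to 7.49 CPM at 30 dpi, ranges that overlap (log2 fold change 2.13, adjusted p = 0.286). The 7.49 CPM came from 30 dpi replicate 3. High levels were found in MN1806CN at 5 dpi, where the SCN libraries ranged from 52.4 to 120.0 CPM, while the SCN:SBA libraries spread from 0.138 to 42.7 CPM.

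Glyma.12g217400, on chromosome 12, was the most abundant gene that fell. Its levels were 2253, 4140 and 4672 CPM at 5 dpi and 838.7, 474.8 and 967.2 CPM at 30 dpi, a mean of 3689 ± 1271 against 760.3 ± 255.4 (SD, n = 3 each). The time points did not overlap, and the log2 fold change was -2.28 (SE 0.67, adjusted p = 0.0126 by edgeR), or -2.03 with an adjusted p of 0.0683 without 30 dpi replicate 2. In the MN1806CN control the change was 0.09 (adjusted p = 0.953), with 2421 to 4034 CPM at 5 dpi and 1788 and 4683 CPM at 30 dpi. The difference between the SBA and control changes, -2.37 (SE 0.95), did not pass the test (adjusted p = 0.969 by edgeR). In PI518671 with SBA the change was -0.46 (adjusted p = 0.691), with 7464 to 14264 CPM at 5 dpi and 6012 to 8834 CPM at 30 dpi, and the difference between the cultivars was -1.82 (SE 0.91, adjusted p = 0.326 by edgeR).

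**Figure D2:**
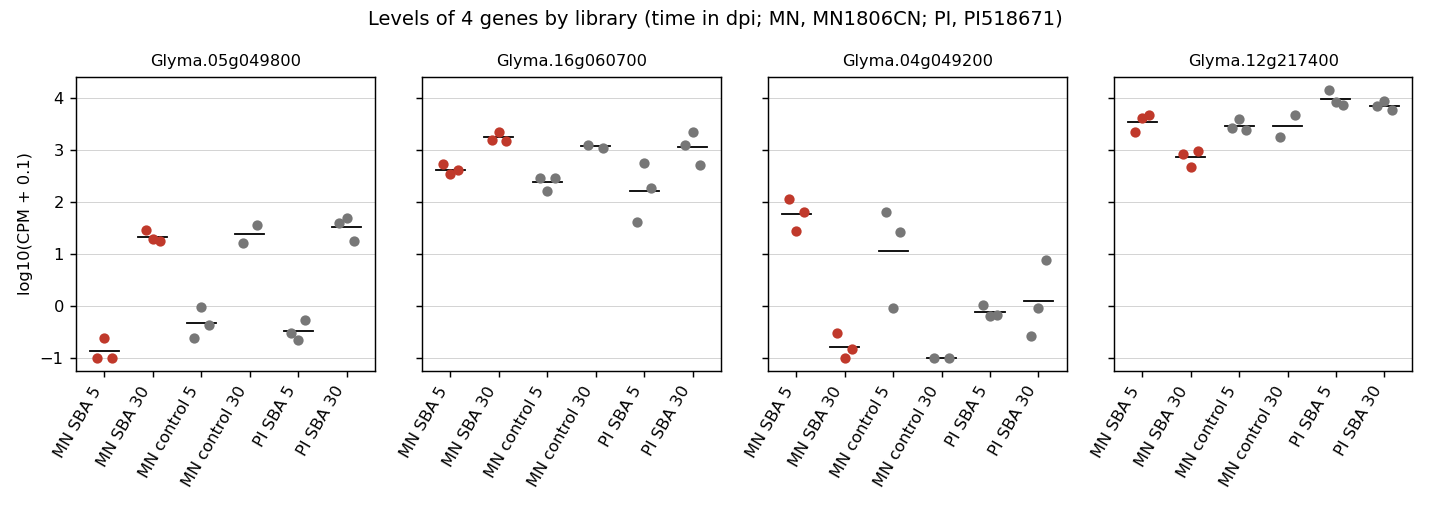
Level of the 4 genes as log10(CPM + 0.1), 1 point per library and a bar at the mean of the plotted values, with MN1806CN SBA in red and the MN1806CN control and PI518671 SBA in grey, at 5 and 30 dpi. The red points of the 2 time points do not overlap in any panel, and only for Glyma.04g049200 is PI518671 low at both times.

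Called genes lay on all 20 chromosomes at similar rates. The share that rose ran from 9.03% (chromosome 10) to 10.7% (chromosome 11), and the share that fell from 9.19% (chromosome 13) to 12.2% (chromosome 8). On a finer scale, called genes stood next to each other. The next tested gene in ID order also rose for 768 of 4263 genes that rose (18.02%), beside 9.94% of all genes, and fell for 8.52% of them. After a gene that fell, the next fell for 656 of 4541 (14.4%), beside 10.6%, and without 5 dpi replicate 3 for 9.54%, beside the 6.36% of all genes that were called lower in that fit.

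Runs of 3 or more adjacent tested genes that rose numbered 123 and held 424 genes, and 87 such runs that fell held 272 genes. Of all tested genes 9.94% rose and 10.6% fell, and some runs arise at such shares wherever the genes lie. How many was not worked out, so the numbers of runs are a description. The longest, 10 genes on chromosome 13, summed to 92.6, 65.0 and 88.7 CPM at 5 dpi and 402.8, 369.8 and 355.2 CPM at 30 dpi. Of these 10, 8 were also called higher in the MN1806CN control, beside 11.1% of all genes, and 9 in PI518671 with SBA, beside 9.99%. A run of 8 genes on chromosome 17 went from 20.4, 10.99 and 15.3 CPM to 349.7, 297.8 and 380.8 CPM, and all 8 also rose in the MN1806CN control and in PI518671 with SBA. The most abundant of the longer runs, 5 genes on chromosome 11, went from 140.8, 58.7 and 66.2 CPM to 2153, 2324 and 2266 CPM, and again all 5 rose in both other pairs. Among the genes that fell the longest run held 5 genes on chromosome 8, at 139.4, 114.5 and 158.9 CPM and then 58.5, 59.8 and 57.6 CPM, of which 3 were also called lower in the control and 2 in PI518671 with SBA, beside 9.9% and 5.26% of all genes. Adjacent genes can be near-identical copies between which the counting splits reads, so the values of single members of a run are uncertain.

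The MN1806CN control shows the same interval without SBA, and its libraries are not shared with this comparison. Of the genes that rose with SBA, 97.6% moved upward in the control, beside 48.9% of all genes, and 3206 (74.8%) were called higher, beside 11.1%. Of those that fell, 97.4% moved downward, beside 50.5% of all genes, and 2551 (55.9%) were called lower, beside 9.9%. Only 5 and 1 were called in the opposite direction. The genes that rose had a median log2 fold change of 2.11 in the control and those that fell -1.23. The genes that rose took 27.5% and 28.6% of the counts of the 2 control libraries at 30 dpi, and 4.97% to 6.13% at 5 dpi.

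Whether SBA altered the change was tested as the difference between the SBA and the control change. By edgeR 0 genes were higher (0%) and 0 lower (0%) at an adjusted p under 0.05, and 2062 genes (4.78%) had an unadjusted p under 0.05. The DESeq2 Wald test called 14 higher and 4 lower. Over genes of at least 1 CPM the median SE of this difference was 0.54 on the log2 scale, and over the called genes the median size of the difference was 0.43, so that differences of that size were not detectable with 3 and 2 or 3 libraries a group. With 30 dpi control replicate 1 left out, 1 gene was called higher.

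The other MN1806CN groups held the same interval with SCN. In MN1806CN with SCN the genes that rose had a median log2 fold change of 1.14 and 1693 (39.5%) were called higher, where 6.5% of all genes were. In MN1806CN with SCN:SBA the median was 0.37 and 348 (8.12%) were called, where 2.07% were. The genes that fell had medians of -0.85 with SCN, where 1870 (40.95%) were called lower beside 7.16% of all genes, and -0.22 with SCN:SBA, where 360 (7.88%) were called beside 1.92%. The share of counts taken by the genes that rose went from 6.97% to 11.1% at 5 dpi to 10.2% to 14.9% at 30 dpi with SCN:SBA, ranges that overlap. Differences between these groups' changes and that with SBA alone were not tested.

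**Figure D3:**
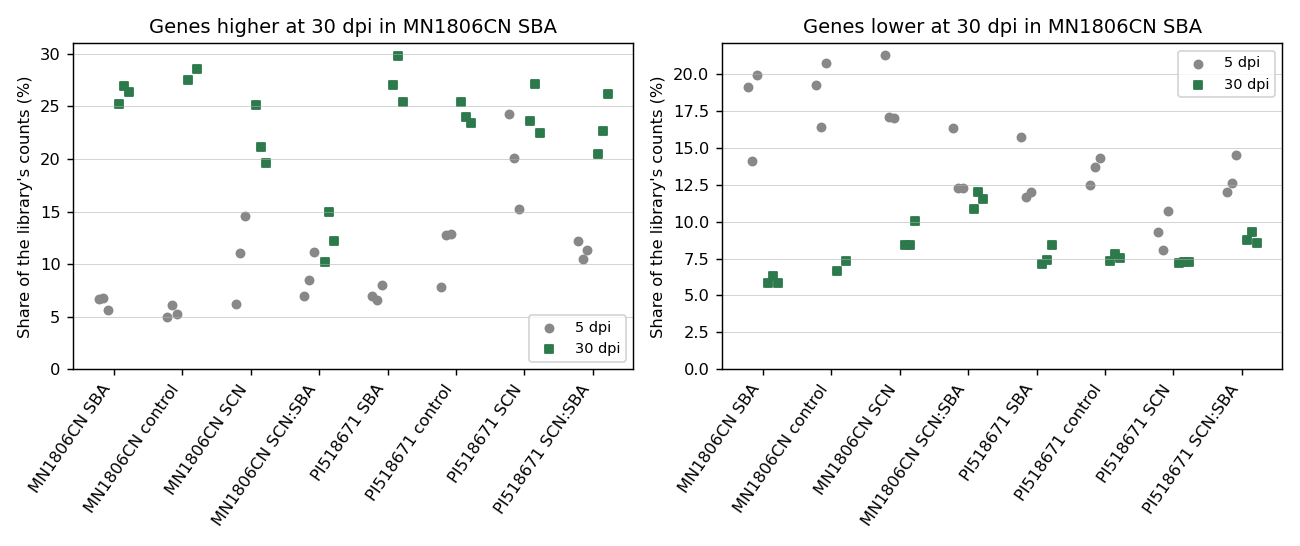
Share of each library's counts, in percent, taken by the 4286 genes that rose (left) and the 4566 that fell (right) in MN1806CN with SBA, 1 point per library at 5 dpi (circles) and 30 dpi (squares) for all 8 cultivar and treatment pairs. The MN1806CN SBA squares lie at 25.3% to 27.0% on the left and 5.83% to 6.34% on the right; the smallest gap in MN1806CN is with SCN:SBA, where the time points overlap on the left.

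In PI518671 with SBA, 92.0% of the genes that rose moved upward, beside 44.4% of all genes, with a median log2 fold change of 1.72. Of the genes that rose, 2546 (59.4%) were called higher there, where 9.99% of all genes were. For the genes that fell the median there was -0.49 and 78.0% moved downward, beside 55.3% of all genes. Of the genes that fell, 1097 (24.0%) were called lower there, where 5.26% of all genes were. In the PI518671 control the genes that rose had a median of 2.43 and 3198 (74.6%) were called higher, where 20.9% of all genes were, and those that fell had a median of -0.74 and 2181 (47.8%) were called lower, where 19.5% were. In PI518671 with SCN:SBA the medians were 0.88 and -0.39, with 1161 (27.1%) called higher beside 3.39% of all genes and 521 (11.4%) called lower beside 2.33%. In PI518671 with SCN the medians were 0.44 and -0.33, with 15 (0.35%) called higher beside 0.0649% and 24 (0.526%) called lower beside 0.0835%.

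**Figure D4:**
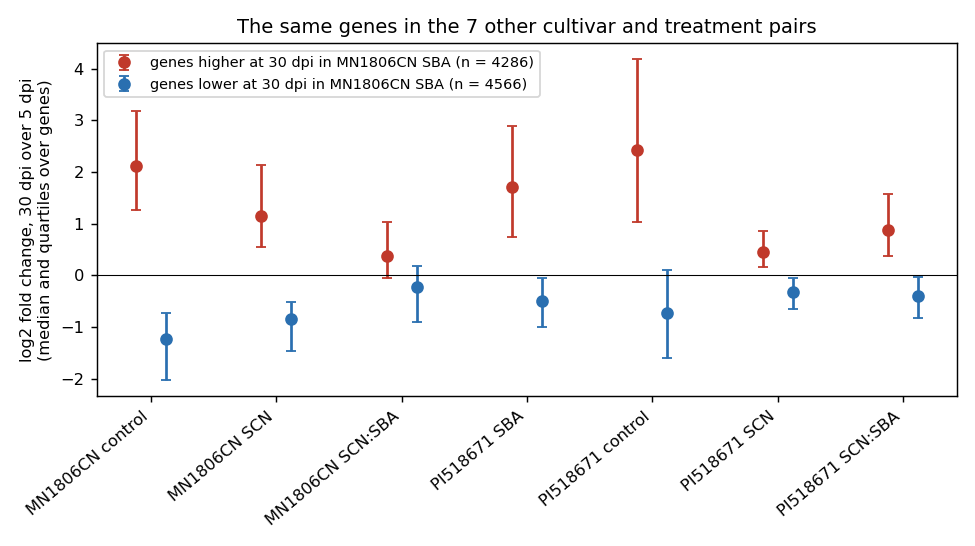
Median log2 fold change, 30 over 5 dpi, of the genes that rose (red) and fell (blue) in MN1806CN with SBA, measured in the other 7 cultivar and treatment pairs, with bars from the lower to the upper quartile over genes. Medians of the genes that rose run from 0.37 to 2.43 and those of the genes that fell from -1.23 to -0.22.

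The 2 cultivars with SBA were compared by the difference between their changes. The MN1806CN change was the higher for 68 genes (0.158% of those tested) and the lower for 504 (1.17%) by edgeR, and 6779 (15.7%) had an unadjusted p under 0.05. Both lists were chosen by this difference on the same libraries, so their directions and levels with SBA are a description. Among the 504, 318 fell in MN1806CN (beside 10.6% of all genes), 232 rose in PI518671 (beside 9.99%) and 49 did both. Their median levels went from 16.2 to 4.90 CPM in MN1806CN and from 4.51 to 10.2 CPM in PI518671, with a median difference of -3.03 on the log2 scale, while 19 rose in MN1806CN with SBA and 4 fell in PI518671. In the MN1806CN control 234 of the 504 were called lower and 38 higher, beside 9.9% and 11.1% of all genes. Among the 68, 45 rose in MN1806CN (beside 9.94% of all genes) and 29 fell in PI518671 (beside 5.26%), 7 of them both. Their median levels went from 2.55 to 9.29 CPM in MN1806CN and from 4.23 to 1.80 CPM in PI518671. Of the 68, 35 were called higher and 2 lower in the MN1806CN control. For Glyma.04g049200 the difference was -11.82 (SE 2.23, adjusted p = 0.00843 by edgeR). Without PI518671 30 dpi replicate 3 it was -9.24 (adjusted p = 0.0436 by edgeR).

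These counts depended on the libraries in the fit. A fit of the 12 libraries of the 2 cultivars with SBA alone called 0 genes, with 4438 at an unadjusted p under 0.05, and gave Glyma.04g049200 a difference of -11.83 with an adjusted p of 0.0601 by edgeR, while the DESeq2 Wald test called 285 higher and 1147 lower. Both directions together came to 143, 1781 and 232 without MN1806CN 5 dpi replicates 1, 2 and 3, and to 217, 181 and 156 without its 30 dpi replicates 1, 2 and 3. They came to 1132, 108 and 229 without PI518671 5 dpi replicates 1, 2 and 3, and to 630, 375 and 794 without its 30 dpi replicates 1, 2 and 3.

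**Figure D5:**
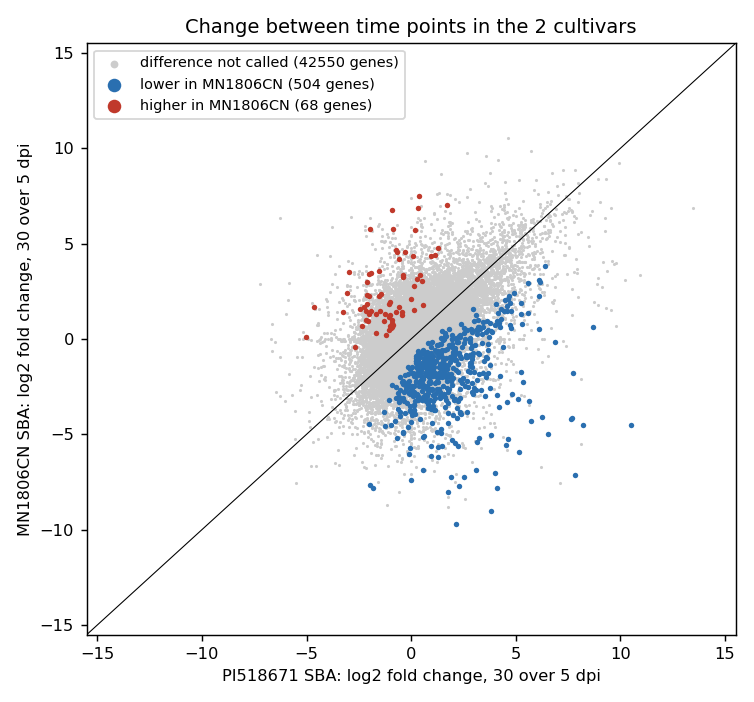
Fitted log2 fold change, 30 over 5 dpi, of each tested gene with SBA in PI518671 (x axis) and MN1806CN (y axis), with a line where both are equal. The 504 genes in blue had the lower change in MN1806CN and the 68 in red the higher change.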

How the data were processed

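RNA from whole soybean roots was sequenced single-end on an Illumina instrument. The table deposited by the authors holds estimated counts for each gene. The authors checked reads with FastQC 0.11.3 and MultiQC 1.3, trimmed them with Btrim64 and quantified them with Salmon 0.9.1 on primary transcripts of Wm82.a2.v1; the table was neither normalized nor filtered. In the 6 libraries 41.5% of values were fractional, and all were rounded. Totals ranged from 12268563 to 22222510, and counting error covers part of the variation only.

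Genes with 0.5 CPM in at least 1 of 47 libraries were kept. All 16 group means were fitted with edgeR 4.0.16 in R 4.3.3 (TMM, quasi-likelihood, two-sided, Benjamini-Hochberg), and the 30 minus 5 dpi change was compared with that of the MN1806CN control and of PI518671 with SBA. Each SE was approximated as the absolute log2 change divided by the root of its F statistic. Alternatives were RLE factors, no filter, filterByExpr, DESeq2 1.42.0, the contrast's libraries alone, a replicate block and each library left out, and library totals without TMM factors, which were added after seeing the data. Fits were also run on simulated data with the same spread set for every gene, which does not test them at the spread of these data.

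The named genes were the 10 largest rises and falls (mean of at least 5 CPM, no overlap), the 5 most abundant in each direction and the 5 largest of each difference. Of 55983 IDs 0 matched the reference, so the part of the rule on gene lists could not be applied and only 4 are printed, 2 for each direction: the first by change and the first by level. These 4 were chosen after their values were seen. The first by level among the genes that rose is not reported here, and the next by level was printed. Members and lists were chosen with earlier results of these data known.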

Additional observations from a re-analysis of the deposited data

Results flagged for a closer look

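The change from 5 to 30 dpi with SBA differed between the cultivars, by the test of the difference itself, for 68 genes with the higher change in MN1806CN and 504 with the lower. For Glyma.04g049200 the difference was -11.82 on the log2 scale (SE 2.23, adjusted p = 0.00843 by edgeR), with the gene near 0 in PI518671 at 5 dpi and at 27.1 to 116.5 CPM in MN1806CN. A fit of the compared libraries alone called 0 genes in either direction.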

How the results depend on the processing

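The counts of genes that rose and fell stayed within 1.5 times with RLE factors, no filter, filterByExpr and DESeq2, which shared 4249 of the 4286 genes that rose and 4315 of the 4566 that fell. The contrast's libraries alone gave 3753 and 3321, of which 3372 and 2968 were shared. With 1 library left out, the genes that rose numbered 2961 to 4487 and those that fell 2741 to 4916. The difference from the control change gave 14 higher and 4 lower with DESeq2, and 0 to 1 higher and 0 to 0 lower with 1 library left out, where a control group left with 1 library is assumed to vary like the others. The difference from PI518671 gave 285 higher and 1147 lower with DESeq2, 304 lower with library totals, 0 and 0 with the contrast's libraries alone, and 10 to 446 higher and 96 to 1335 lower with 1 library left out. The causes were not tested.

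Deviations from the group means gave no sign of pairing by replicate number between the time points. They correlated at 0.095, -0.078 and -0.123 between same-numbered libraries and at up to 0.247 between others. These values were taken over genes with a mean of at least 1 CPM. Over all tested genes, an unlike set, same-numbered values were 0.105 and -0.028 in the MN1806CN control. In PI518671 with SBA they were -0.07, -0.538 and -0.06 over all tested genes. The labels give no shared block, and the time points came from different water baths. Pairing by block between treatments or cultivars within a water bath was not checked. The replicate block joined same-numbered libraries across all groups of a contrast. With the replicate block, on the contrast's libraries alone, 2615 genes fell, and the difference from PI518671 was called for 0 genes higher and 0 lower, with Glyma.04g049200 at -11.35 (adjusted p = 0.114 by edgeR).

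Changes in genes below 1 CPM rest on few counts.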
